A study of Mus musculus with 4 samples.

Results

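A set of 10 genes of neurogenesis was followed in brains of mouse embryos at E13.5, counted in days of gestation: Neurog1, Neurog2, Eomes, Insm1, Gadd45g, Btg2, Rgs16, Rnd2, Neurod1 and Nhlh1. They were taken by name from the 19150 genes measured in both deposited tables, and all 10 were found once in each table and held enough reads to be tested. The list was chosen by name with the read counts and KO-to-WT differences of these same libraries in view, so those differences are given as a description of these genes. RNA sequencing covered 2 libraries labelled KO (KO2 and KO4) and 2 labelled WT (WT6 and WT8), all from C57BL/6 brain at E13.5. The title of the series names a deletion of macroH2A, a histone H2A variant with a large extra domain, and the labels do not say which of its genes was targeted, how, or whether the embryos shared a litter. The p-values therefore measure the spread between these libraries, which may in part be technical.

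In the embryonic cortex, apical progenitors divide at the ventricle and give rise to intermediate progenitors, which divide again away from it and produce most of the excitatory neurons. Proneural factors of the basic helix-loop-helix (bHLH) family start this step: Neurog1 and Neurog2 drive dorsal progenitors toward neurons and are held back by Notch signalling. Eomes (Tbr2) marks intermediate progenitors, and Neurod1 and Nhlh1 act next in newborn neurons.

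The library labels were checked first on the macroH2A genes. Reads of H2afy (macroH2A1) numbered 1368 (KO2) and 1267 (KO4), against 5538 (WT6) and 5593 (WT8). The log2 fold change of KO over WT was -2.22 (SE 0.10), with an adjusted p of 0.00167 by the quasi-likelihood test of edgeR. H2afy2 (macroH2A2) averaged 198 ± 11.4 CPM, the reads scaled to library size, in KO brains, against 187 ± 6.91 CPM in WT brains (SD, n = 2 each), and its log2 fold change was 0.08 (edgeR adjusted p = 0.799). Reads counted in genes summed to between 16470090 and 18136745 per library. The tissue carried forebrain transcripts, such as those of Emx1 and Dlx2, whose levels are given further on. Of midbrain and hindbrain markers, Pax2 had 1 to 5 reads per library and En2 had no value in the tables used here. Pax2 and En2 were picked after their values were seen.

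The 250 bases upstream of the RefSeq start were searched for the bHLH binding sequence, the E-box CANNTG, which reads the same on both strands. Promoters were at hand for 8 of the 10 genes (RefSeq, GRCm38.p6), all but Insm1 and Rnd2. Of these, 3 held a CANNTG, beside 66.2% of the 32851 promoters in the table. The version CAGATG, searched on either strand, was in 1 of the 8, beside 14.4% of all promoters. The 3 promoters with an E-box are printed first, with the match in capitals. Those of Neurog2 and Eomes follow, as the proneural factor that the ratios below are set against and the gene that differed most between the WT libraries. Bases that GENCODE M21 places inside the gene are left out, which shortens the Neurod1 sequence to 135 bases and that of Neurog2 to 249.
Gadd45g (chr13:51846425-51846674, plus strand): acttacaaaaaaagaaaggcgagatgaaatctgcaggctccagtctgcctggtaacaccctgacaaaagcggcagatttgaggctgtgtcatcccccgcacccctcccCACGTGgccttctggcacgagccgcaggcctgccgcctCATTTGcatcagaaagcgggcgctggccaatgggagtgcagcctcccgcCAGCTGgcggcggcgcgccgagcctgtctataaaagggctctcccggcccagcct
Neurod1 (chr2:79456752-79456886, minus strand): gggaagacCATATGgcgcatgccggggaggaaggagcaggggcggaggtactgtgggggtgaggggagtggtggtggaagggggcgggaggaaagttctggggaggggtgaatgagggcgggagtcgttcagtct
Nhlh1 (chr1:172057597-172057846, minus strand): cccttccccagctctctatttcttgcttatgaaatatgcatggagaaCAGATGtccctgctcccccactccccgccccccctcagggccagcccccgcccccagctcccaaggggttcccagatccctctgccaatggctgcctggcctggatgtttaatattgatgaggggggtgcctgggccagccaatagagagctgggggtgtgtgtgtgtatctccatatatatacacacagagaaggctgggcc
Neurog2 (chr3:127632886-127633134, plus strand): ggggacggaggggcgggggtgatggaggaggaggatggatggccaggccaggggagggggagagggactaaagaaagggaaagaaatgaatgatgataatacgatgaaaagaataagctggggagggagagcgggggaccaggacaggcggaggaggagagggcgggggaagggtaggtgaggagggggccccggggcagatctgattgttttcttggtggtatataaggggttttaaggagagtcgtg
Eomes (chr9:118477939-118478188, plus strand): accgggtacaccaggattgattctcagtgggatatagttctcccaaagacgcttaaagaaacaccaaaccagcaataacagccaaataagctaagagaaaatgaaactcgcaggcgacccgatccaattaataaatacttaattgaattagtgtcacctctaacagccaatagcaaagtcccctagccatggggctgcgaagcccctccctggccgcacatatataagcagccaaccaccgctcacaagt
The Gadd45g promoter held 3 E-boxes, a number reached or passed by 12.2% of all promoters. The Neurod1 and Nhlh1 promoters held 1 each, and that of Nhlh1 was the CAGATG. A match describes the letters of the window, and a window without one says nothing of binding elsewhere.

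Per kilobase of exon, Rnd2 was the most abundant of the 10 and Neurog1 the least. Rnd2 had 159 ± 6.51 CPM per kb in KO and 205 ± 5.76 CPM per kb in WT (SD, n = 2 each here and below). Neurog2 followed with 125.5 ± 7.62 CPM per kb in KO and 135 ± 20.7 in WT, and Gadd45g with 113 ± 4.32 in KO and 128 ± 15.4 in WT. Neurog2 and Gadd45g overlapped over the 4 libraries and are not ordered. Insm1 stood at 55.5 ± 1.27 CPM per kb in KO and 54.6 ± 9.30 in WT. Eomes, at 34.9 ± 2.11 in KO and 36.4 ± 11.9 in WT, overlapped with Btg2, at 33.8 ± 0.767 in KO and 36.3 ± 0.0427 in WT. Nhlh1 at 22.6 ± 1.28 in KO and 24.6 ± 2.17 in WT overlapped with Neurod1 at 21.1 ± 0.684 in KO and 22.2 ± 3.05 in WT. Rgs16 had 15.2 ± 0.904 CPM per kb in KO and 17.7 ± 1.22 in WT. Neurog1 had 8.97 ± 0.963 in KO and 9.43 ± 0.262 in WT. Of the neurogenins, Neurog2 was thus the more abundant per kilobase in each library. Neurog3 had no value in the tables used here.

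**Figure D1:**
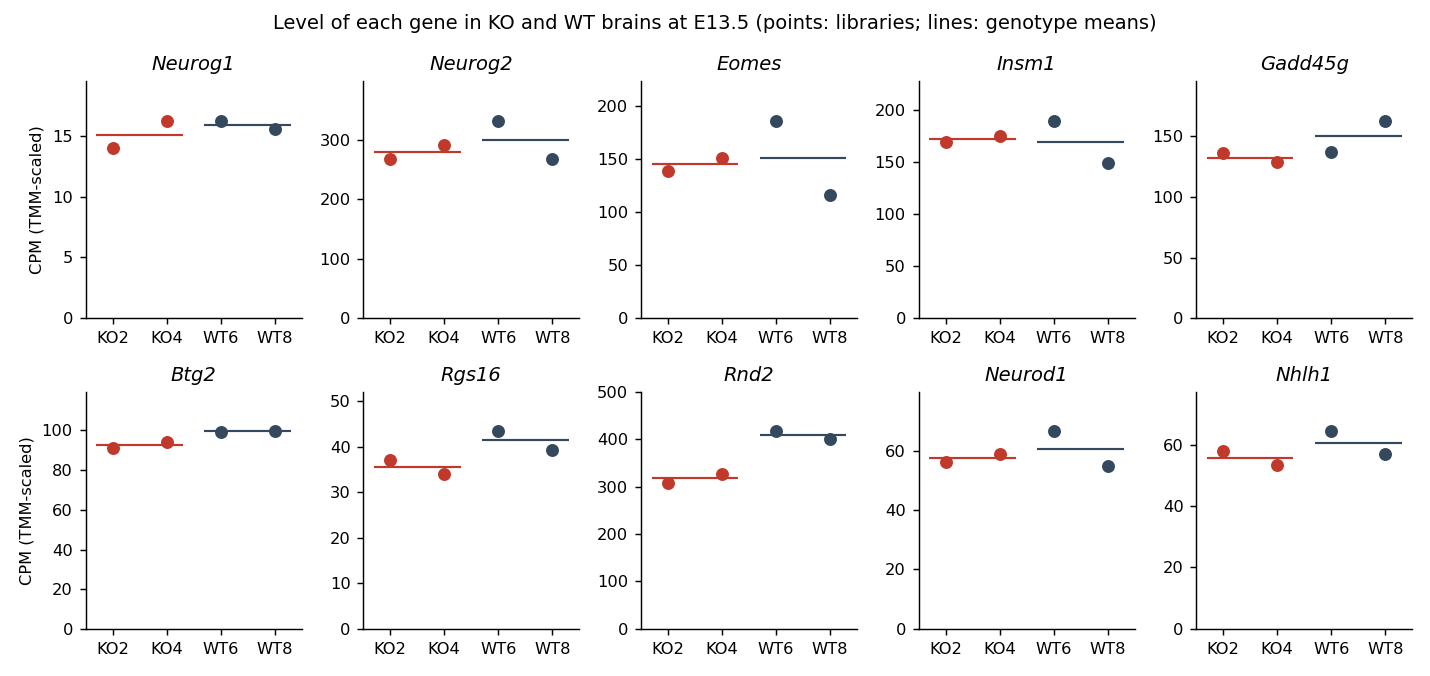
CPM scaled by the TMM method (y axis, from 0) of the 10 genes in libraries KO2, KO4, WT6 and WT8 (x axis), points for libraries and lines for genotype means. Eomes spans 116 to 186 CPM between the WT libraries with both KO libraries between them, and Rnd2 lies at 308 and 327 CPM in the KO libraries and at 417 and 400.5 CPM in the WT libraries.

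The proneural factors Neurog1 and Neurog2 overlapped between the genotypes. Neurog2 (ENSMUSG00000027967, chromosome 3, 127633135 to 127635631, plus strand; positions here and below are on GRCm38) had 267.5 CPM (KO2) and 292 CPM (KO4), against 333 CPM (WT6) and 267.3 CPM (WT8). Both KO libraries lay between the WT libraries, KO2 just above WT8. Its log2 fold change of KO over WT was -0.10 (SE 0.12, edgeR adjusted p = 0.822). Neurog1 (ENSMUSG00000048904, chromosome 13, 56250478 to 56252163, minus strand) had 13.97 and 16.27 CPM in KO, against 16.22 in WT6 and 15.6 in WT8, on 249 to 298 reads per library. Here the WT libraries lay between the KO libraries, an order of 8.7% of all genes, and the log2 fold change was -0.07 (SE 0.14, edgeR adjusted p = 0.897).

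Neurog1 is a close neighbour of H2afy, the macroH2A gene with reduced reads in KO. Its start lies 115.802 kb from that of H2afy on chromosome 13. The 95% interval of its log2 fold change ran from -0.42 to 0.27. Of the other genes measured within 250 kb, Tifab had 8 and 17 reads (KO) against 15 and 17 (WT), a log2 fold change of -0.50 (edgeR adjusted p = 0.788). The chemokine gene Cxcl14 had 329 and 352 reads (KO) against 266 and 311 (WT). Its value was 0.09 on the log2 scale (SE 0.16, edgeR adjusted p = 0.880). AC164426.2, an antisense gene that overlaps H2afy, had 0 and 1 reads (KO) against 86 and 68 (WT), with an edgeR adjusted p of 0.0626. Of its 3089 exon bases, 501 are shared with exons of H2afy. Reads in these shared bases cannot be told apart from those of H2afy where counting ignored strand. Gadd45g is on the same chromosome, 4290 kb away.

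Eomes and Insm1, transcription factor genes of intermediate progenitors, did not differ between genotypes beyond the spread of the WT libraries. Eomes (ENSMUSG00000032446, chromosome 9, 118478212 to 118486132, plus strand) encodes a T-box factor and had 139 CPM (KO2) and 151 CPM (KO4), against 186 CPM (WT6) and 116 CPM (WT8). WT6 was 1.60 times WT8, while the KO libraries differed 1.09-fold, and both KO libraries lay between the WT ones. The log2 fold change was -0.06 (edgeR adjusted p = 0.939), and its 95% interval, the widest of the 10, ran from -0.55 to 0.42. Its direction depended on the WT library used: it was 0.32 without WT6 and -0.36 without WT8. Insm1 (ENSMUSG00000068154, chromosome 2, 146221921 to 146225020, plus strand), a zinc finger gene needed for intermediate progenitors to form, had 169 and 175 CPM in KO, against 189.6 in WT6 and 149 in WT8. KO again lay between the WT libraries, and the log2 fold change was 0.02 (SE 0.12, edgeR adjusted p = 0.962).

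The bHLH genes of newborn neurons overlapped between the genotypes too. Neurod1 (ENSMUSG00000034701, chromosome 2, 79452521 to 79456751, minus strand) had 56.1 and 58.8 CPM in KO, against 66.5 in WT6 and 54.7 in WT8. Its fold change was -0.08 on the log2 scale (SE 0.11, edgeR adjusted p = 0.856), with KO between the WT libraries. Nhlh1 (ENSMUSG00000051251, chromosome 1, 172052292 to 172057573, minus strand) had 57.9 and 53.5 CPM in KO, against 64.4 in WT6 and 56.8 in WT8, and the genotypes overlapped. KO over WT was -0.12 on the log2 scale (SE 0.10, edgeR adjusted p = 0.759).

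Gadd45g and Btg2, both linked to the end of the cell cycle in progenitors, lay lower in both KO libraries than in both WT libraries, and neither passed the test. Gadd45g (ENSMUSG00000021453, chromosome 13, 51846678 to 51848468, plus strand), a growth arrest and DNA damage gene, had 136 and 129 CPM in KO, against 138 in WT6 and 163 in WT8. KO2 and WT6 were thus 136 against 138 CPM, nearly level. Its log2 fold change was -0.18 (SE 0.11, edgeR adjusted p = 0.743). Btg2 (Tis21; ENSMUSG00000020423, chromosome 1, 134075170 to 134079120, minus strand), an antiproliferative gene switched on in progenitors that are about to make neurons, had 91.2 and 94.2 CPM in KO, against 99.4 in WT6 and 99.6 in WT8. The log2 fold change was -0.10 (edgeR adjusted p = 0.752), its 95% interval running from -0.29 to 0.08.

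Rgs16 and Rnd2 had the lowest fold changes of the 10. Rgs16 (ENSMUSG00000026475, chromosome 1, 153740349 to 153745468, plus strand), which shortens G protein signalling, had 37.1 and 34.1 CPM in KO, against 43.4 in WT6 and 39.4 in WT8. Its log2 fold change was -0.22 (SE 0.10, edgeR adjusted p = 0.743). Rnd2 (ENSMUSG00000001313, chromosome 11, 101464999 to 101471853, plus strand), an atypical small GTPase gene that Neurog2 activates and that migrating cortical neurons require, had 308 CPM (KO2) and 327 CPM (KO4), against 417 CPM (WT6) and 400.5 CPM (WT8). Both KO libraries lay well below both WT libraries. KO was 0.777 times WT, or -0.36 on the log2 scale, and the 95% interval ran from -0.57 to -0.16. Its edgeR adjusted p was 0.743 over 15708 genes, and the unadjusted p 0.00445. Rnd2 passed without WT8 (edgeR adjusted p = 0.0387), in a fit with a lone WT library, assumed to vary as the KO libraries do. That fit called 0.226% of genes lower and 0.41% higher, against 0.00616% lower without KO2, 0.0123% without KO4 and 0 genes without WT6. Over all alternatives its adjusted p ran from 0.0387 to 0.9998, and its log2 fold change from -0.41 to -0.32.

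The Rnd2 count may be affected by reads of a neighbour. Exons of Rnd2 share 226 bases with those of Vat1, a gene on the opposite strand, and nothing in the labels tells whether counting was by strand. Vat1, which was looked up because of this overlap, had 213 and 196 CPM in KO, against 226 in WT6 and 267 in WT8. This was -0.27 on the log2 scale (SE 0.11, edgeR adjusted p = 0.743). Its part in the Rnd2 value was not tested. Other overlaps in annotation touched Eomes, with 118 bases of the antisense gene Gm33460 at 37 to 54 reads per library, and Neurod1, with 201 bases of Cerkl at 1 to 6 reads. Both counts are far below those of the overlapped genes. Rgs16 shares 236 bases with the antisense gene Gm28513, and Neurod1 154 bases with Gm26755, for which no value is given here.

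**Figure D2:**
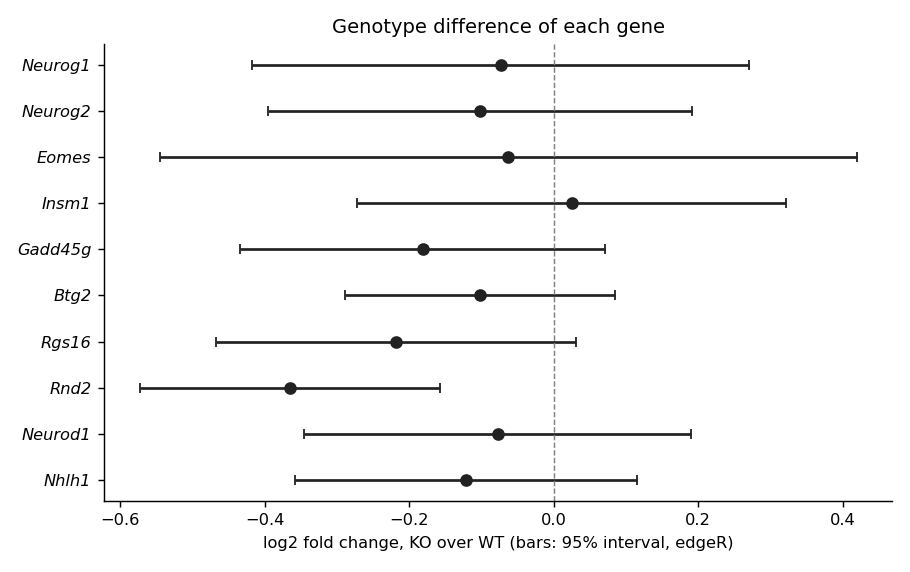
Log2 fold change of KO over WT (x axis) of each of the 10 genes (y axis) from edgeR, with bars for the 95% interval. The intervals of 9 genes cross 0, and Rnd2 stands at -0.36 with an interval from -0.57 to -0.16.

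As a group, none of the 10 genes passed the edgeR test over all genes, in which 0.00637% of the 15708 genes tested were called (1 gene, H2afy). DESeq2, which called 0.0255% of all genes, and limma-voom called none of the 10 either. An unadjusted edgeR p under 0.05 was found for 1 of the 10 (Rnd2, lower), beside 4.7% of all genes in either direction and 2.26% lower. The log2 fold changes lay between -0.36 and 0.02, with a median of -0.10, against -0.01 over all genes tested, and 9 of 10 were below 0, against 51.1% of all genes. Both KO libraries were below both WT libraries for 4 of the 10 (Gadd45g, Btg2, Rgs16 and Rnd2), an order found for 19.4% of all genes, and 0 of 10 had the opposite order, found for 20.1%. As the genes were chosen with these values known, nothing is read from these shares. The 95% intervals, not adjusted for the number of genes, reached between 0.19 and 0.48 to either side on the log2 scale. Smaller differences were not detectable with 2 libraries per genotype, and larger ones could be missed too. Rnd2, whose interval left out 0, was not called over all genes. In bulk tissue, fewer cells of a type and less RNA per cell cannot be told apart.

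The WT libraries differed from each other for several of the 10 genes. For Neurog2, Eomes, Insm1 and Neurod1, WT6 was the highest and WT8 the lowest of the 4 libraries, with both KO libraries between them. Both KO libraries lay between the WT libraries, whichever of these was higher, for 19.2% of all genes. WT6 was the highest library for 7 of the 10, against 23.0% of all genes tested. The WT libraries differed 1.60-fold for Eomes, 1.27-fold for Insm1, 1.24-fold for Neurog2 and 1.22-fold for Neurod1. For these genes the KO libraries differed by 1.09-fold at most. The Eomes difference between the WT libraries was reached or passed by 9.95% of all genes, that of Insm1 by 27.2%. Gadd45g ran the other way, with WT8 at 1.19 times WT6, and Btg2 differed least, at 99.4 CPM in WT6 and 99.6 in WT8. Summed over the 10 genes, the libraries held 1276 CPM (KO2) and 1329.9 CPM (KO4), against 1553 CPM (WT6) and 1362 CPM (WT8).

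Each deposited table pairs 1 KO with 1 WT library, and the authors' own comparisons of these pairs gave opposite signs, with an adjusted p under 0.05 in each, for the same 4 genes. In the authors' deposited table of KO2 over WT6, Eomes stood at a log2 fold change of -0.41 (authors' adjusted p = 2.5e-25), and in that of KO4 over WT8 at 0.44 (1.84e-23). Neurog2 stood at -0.30 (3.69e-25) and 0.19 (1.28e-09) in the authors' deposited tables, Insm1 at -0.15 (0.000352) and 0.30 (2.31e-13), and Neurod1 at -0.23 (0.00164) and 0.17 (0.0196). Rnd2 was the single gene of the 10 with an authors' adjusted p under 0.05 and the same sign in both deposited tables, at -0.42 (3.34e-59) and -0.23 (9.66e-18), beside 1.64% of genes called lower in both. Gadd45g stood at -0.00 (0.726) and -0.28 (1.59e-10) in the authors' deposited tables, and Rgs16 at -0.22 (0.0251) and -0.14 (0.0991). Such adjusted p-values come from 1 library against 1 and compare those libraries, not the genotypes.

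In the authors' deposited table of KO2 over WT6, 6 of the 10 genes had an adjusted p under 0.05, all lower, beside 8.67% of its genes called lower, 8.58% higher and 17.3% in either direction. In that of KO4 over WT8, 6 had one, 2 lower and 4 higher, beside 15.2% and 23.8% of its genes in these directions and 39% in either. Over the genes in both deposited tables, 6.53% were called in opposite directions, as 4 of the 10 were, and 4.75% in the same direction. None of the 10 carried the authors' mark of significance, given to 1.86% and 5.05% of the genes of the tables and found to require a log2 fold change of at least 1 in size. The tables share no library.

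**Figure D3:**
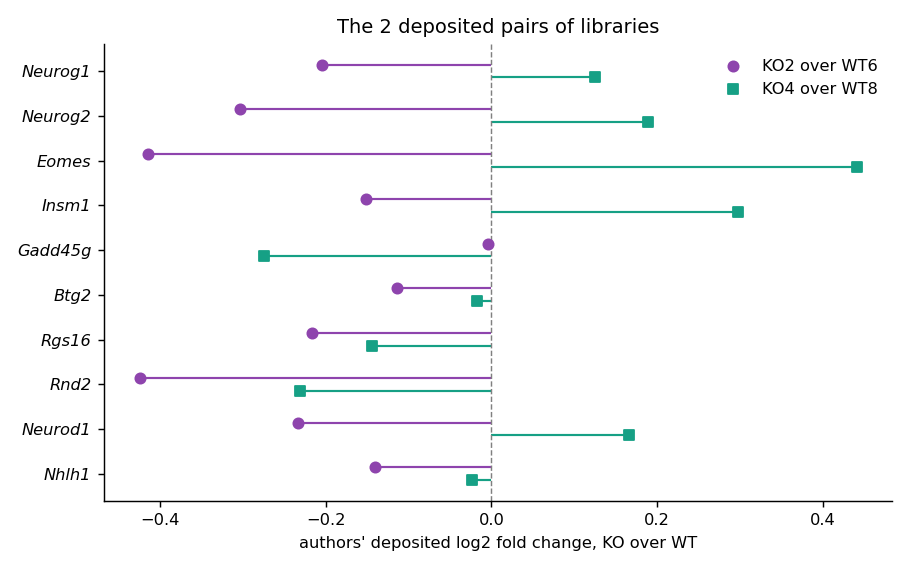
The authors' deposited log2 fold change of KO over WT (x axis) of the 10 genes (y axis), circles for KO2 over WT6 and squares for KO4 over WT8. Neurog1, Neurog2, Eomes, Insm1 and Neurod1 lie on opposite sides of 0 in the tables, and the other 5 genes lie below 0 in both.

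The genes kept different ratios to Neurog2 within a library. Neurod1 had 0.210 and 0.202 reads per Neurog2 read in KO, against 0.1999 in WT6 and 0.205 in WT8. The highest library exceeded the lowest 1.05-fold. Counting error alone gives a coefficient of variation of up to 3.71% for this ratio. The ratio of these genes was thus nearly level over the libraries, although each was higher in WT6 than in WT8. Insm1 varied 1.14-fold, from 0.557 to 0.633 reads per Neurog2 read, with both KO libraries above both WT libraries. Nhlh1 varied 1.18-fold and Neurog1 1.196-fold.

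Eomes varied 1.29-fold against Neurog2, with 0.519 and 0.518 reads per Neurog2 read in KO, against 0.560 in WT6 and 0.435 in WT8. The KO libraries were level, and the WT libraries stood on either side. Rnd2 had 1.15 and 1.12 reads per Neurog2 read in KO, against 1.25 in WT6 and 1.498 in WT8, and the genotypes did not overlap. Gadd45g varied most, 1.48-fold, with 0.509 and 0.442 in KO, against 0.413 in WT6 and 0.610 in WT8. These ratios were examined after the values were seen and were not tested. How many of all genes have a ratio to Neurog2 that separates the genotypes was not counted. By CPM, the genotypes did not overlap for 39.4% of all genes, so nothing is read from the orders of Insm1 and Rnd2.

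**Figure D4:**
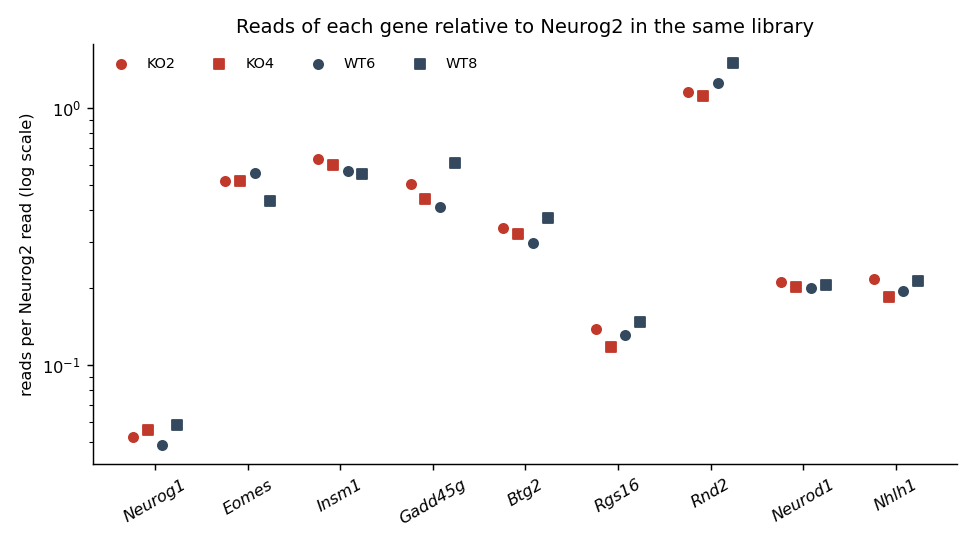
Reads of each gene per read of Neurog2 in the same library (y axis, log scale) for the other 9 genes (x axis), red for KO and dark blue for WT. Neurod1 lies between 0.1999 and 0.210 in all 4 libraries, whereas Gadd45g spans 0.413 to 0.610.

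Genes around these 10 in the pathway were taken from lists of 83 genes in all, 78 of which were tested, and none passed the edgeR test over all genes. Among other bHLH factors, 4 of 8 tested lay below 0 and the median log2 fold change was -0.00. The neuronal factor gene Neurod2, with the smallest p of these, had 480.0 and 529 CPM in KO, against 705 in WT6 and 452 in WT8, with a log2 fold change of -0.20 (edgeR adjusted p = 0.789). Olig1, of the oligodendrocyte lineage, stood at 0.20. Among the E proteins and the inhibitors of bHLH factors, 12 of 13 lay below 0, with a median of -0.10. The exception was Tcf12, an E protein gene and dimer partner of proneural factors, with 115 and 140 CPM in KO, against 107 in WT6 and 99.3 in WT8, or 0.30 on the log2 scale (SE 0.11, edgeR adjusted p = 0.743). Hes6, which relieves repression by Hes1, stood at -0.20.

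Genes known to follow Neurog2 or Eomes, and other markers of intermediate progenitors, were also without a call. Of 16 genes downstream, 9 lay below 0, with a median of -0.07. Rnd3, a small GTPase gene and relative of Rnd2, had 133 and 134 CPM in KO, against 102 in WT6 and 124 in WT8. On the log2 scale it stood at 0.23 (SE 0.11, edgeR adjusted p = 0.743), on the other side of 0 from Rnd2. Of 18 other intermediate progenitor markers, 10 lay below 0, with a median of -0.11. The immunoglobulin superfamily gene Igsf8 stood at -0.29 (SE 0.10), with 319 and 332 CPM in KO, against 372 in WT6 and 422 in WT8. Rprm, a cell cycle arrest gene, stood at -0.19 (SE 0.08). Both had KO below WT without overlap and an edgeR adjusted p of 0.743. Of the 18 markers, 2 had this order and 2 the opposite one, beside 19.4% and 20.1% of all genes.

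No gene of the steps before and after passed the test either. Apical progenitor genes had 5 of 11 below 0 and a median of 0.02, with Nes, the nestin gene, at -0.17 and Prom1 at 0.15. Early neuron genes had 7 of 14 below 0 and a median of -0.00, with the microtubule gene Map2 at 0.20 and the semaphorin receptor gene Nrp1 at 0.30. Relatives of the non-bHLH genes had 9 of 17 tested below 0 and a median of -0.01. Gadd45a and Gadd45b, relatives of Gadd45g named after their values were seen, had 41 to 66 and 49 to 65 reads per library. Their log2 fold changes were -0.47 (SE 0.29, edgeR adjusted p = 0.743) and -0.32 (SE 0.25, edgeR adjusted p = 0.757). The relative of Btg2 with the smallest p, Btg1, stood at 0.18.

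The difference between the WT libraries ran in opposite directions for the dorsal genes Neurod6 and Tbr1 and the ventral genes Dlx2 and Isl1. The genes in this and the next paragraph were chosen after their values were seen, other than Emx1, which is named for the smallest p among the tissue markers. Neurod6, a gene of cortical neurons, had 597 and 642 CPM in KO, against 839 in WT6 and 530.1 in WT8, and Tbr1, of early cortical neurons, had 303 and 343 in KO, against 372 in WT6 and 271 in WT8. Both had the order of Eomes and Neurog2. The ventral homeobox gene Dlx2 had 194 and 185 CPM in KO, against 123 in WT6 and 212 in WT8. Its lowest library was WT6.

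Isl1, a gene of ventral forebrain and ganglion neurons, had 42.6 and 40.3 CPM in KO, against 16.6 in WT6 and 49.7 in WT8. Emx1, a dorsal telencephalon gene of the tissue check, had another order: its levels were 145 and 137 CPM in KO, against 194 in WT6 and 197 in WT8, or -0.47 on the log2 scale (SE 0.08, edgeR adjusted p = 0.743). Its libraries were ordered as those of Rnd2 were, with both KO below both WT, and not as those of Eomes. Of the 9 tissue markers tested, 3 had this order and 1 the opposite one, beside 19.4% and 20.1% of all genes. Pax6, of apical progenitors, had 86.6 and 95.1 CPM in KO, against 93.8 in WT6 and 74.4 in WT8. The part of the regional makeup of each sample in the levels of the 10 genes was not tested.

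**Figure D5:**
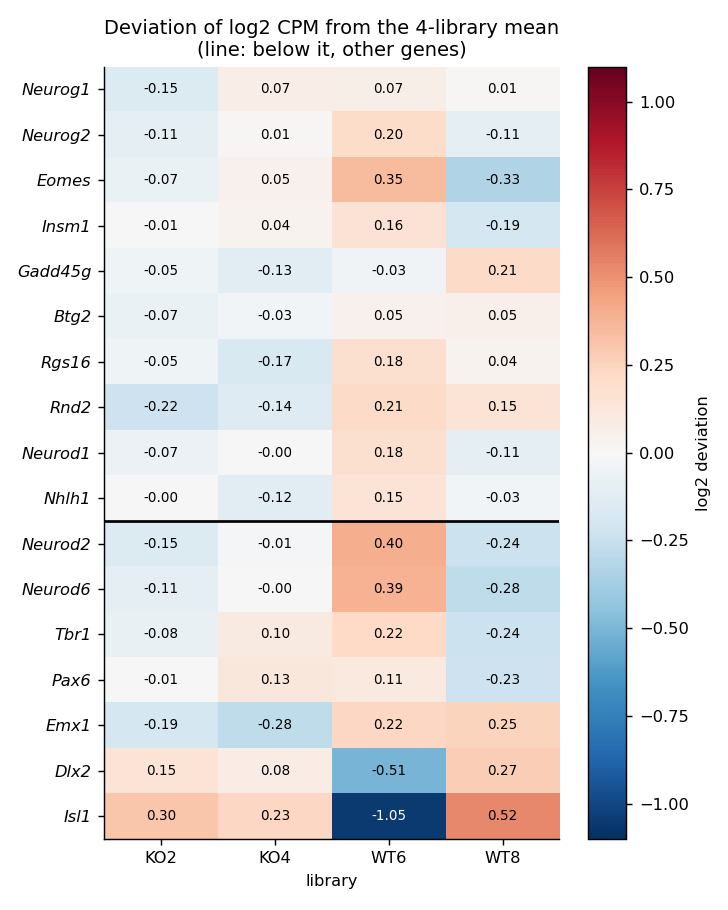
Deviation of log2 CPM from the mean of the 4 libraries (colour and printed value) for the 10 genes and, below the line, for 7 genes of dorsal and ventral forebrain (rows) in each library (columns). Eomes, Neurod2 and Neurod6 are highest in WT6, where Dlx2 and Isl1 are lowest, and Rnd2 and Emx1 are lower in both KO libraries than in both WT libraries.

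Markers of other cells that could be in the samples are given by their sums, with single markers picked after their values were seen. Cranial sensory ganglia express Neurog1, Neurod1 and Nhlh1, and 6 of 8 ganglion markers were measured, none at 0 reads in any library. Their summed level was 52.2 and 46.9 CPM in KO, against 23.3 in WT6 and 60.9 in WT8, most of it from Isl1, and Pou4f1, the defining sensory neuron factor gene, had 6 to 12 reads per library. Of 8 olfactory epithelium and retina markers 5 were measured and 2 tested. The retinal gene Atoh7 had 1 to 6 reads and Six6 had 7 and 0 in KO, against 0 in WT6 and 84 in WT8. Erythroid markers (5 of 5) summed to 565 CPM in either KO library, against 430.5 in WT6 and 975 in WT8. Microglial markers (5 of 5) summed to 31.98 and 31.7 CPM in KO, against 33.2 in WT6 and 39.6 in WT8, endothelial markers (5 of 5) to 184 and 174 against 182 and 208, and mesenchymal markers (4 of 5 tested) to 10.4 and 8.79 against 8.08 and 10.4. WT8, the library with the lowest Eomes, Insm1, Neurog2 and Neurod1, thus held the highest ganglion, erythroid, microglial and endothelial sums. Of single markers, 5 of 6 ganglion, 3 of 5 erythroid, 4 of 5 microglial and 2 of 5 endothelial ones were highest in WT8. WT8 was the highest library for 5153 of the 15708 genes tested, so nothing is read from these counts. As many endothelial markers, 2 of 5, were highest in WT6. The part of these cells in the values was not tested.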

How the data were processed

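RNA from brains of C57BL/6 embryos at E13.5 was extracted with Trizol and sequenced, per the labels' protocols, as 2 KO and 2 WT libraries, grouped by title. Bowtie2 2.2.3, TopHat2 2.0.12, HTSeq 0.6.0 and the mm9 build are listed, without their roles, per the submitters' processing notes. Positions in the tables equal those of GENCODE M21 (GRCm38) for 91.2% of genes, so positions are given on GRCm38. The labels do not say whether library preparation or counting kept strand.

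Both tables that the authors deposited hold whole-number read counts per gene for 1 KO and 1 WT library, CPM, the fold (ratio) of KO to WT with its log2, and raw and adjusted p-values, per the file headers. No label names the test that gave these p-values. Total counts were 18136745 (KO2), 18079127 (KO4), 17151485 (WT6) and 16470090 (WT8), and tables were joined on the 19150 shared gene identifiers.

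Counts were fitted in R 4.3.3 with edgeR 4.0.16 (quasi-likelihood F-test, genotype as the only term, TMM normalization, filterByExpr, 15708 genes, Benjamini-Hochberg threshold 0.05). The SE is the log2 fold change over the root of F. CPM values in the text are TMM-scaled (factors 0.971 to 1.01), and deviations use log2 CPM with a prior count of 2. Levels per kb divide by GENCODE exon bases. The fit was tested on simulated data. Alternatives were other normalizations, no filter, DESeq2 1.42.0, limma-voom (limma 3.58.1), limma on log2 of the deposited CPM plus 1, the deposited pair as a block, and leaving out each library.

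The 10 genes and the lists were chosen with earlier results of these data known. Named genes are the 10, H2afy, H2afy2, genes within 250 kb of H2afy, and per list the 2 with the smallest p. Any other gene was picked after its values were seen.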

Additional observations from a re-analysis of the deposited data

How the results depend on the processing

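The 10 genes and all listed genes stayed without a call under every alternative but the fit without WT8, in which WT6 stands alone and which called Rnd2 (log2 fold change -0.39). Leaving out each library in turn gave 0 to 67 genes called higher and 0 to 37 lower, 0 to 1 of the 10, and 0 to 8 listed genes, those of the fit without WT8 including Rnd2, Neurod2, Neurod6, Olig2, Id2, Dll3 and Rgs2. Genes called lower numbered 2 with no normalization, with DESeq2, with limma on the deposited CPM and with the deposited pair as a replicate block, and DESeq2 also called 2 higher. The median log2 fold change of the 10 lay between -0.20 and -0.038 without single libraries and between -0.11 and -0.06 otherwise. Signs changed without single libraries for Neurog1 (-0.19 to 0.039), Neurog2 (-0.25 to 0.063), Eomes (-0.36 to 0.32), Insm1 (-0.13 to 0.21) and Neurod1 (-0.21 to 0.069), and the causes were not tested. Eomes also changed sign with limma on the deposited CPM (0.013). Gadd45g, Btg2, Rgs16, Rnd2 and Nhlh1 kept their direction under all 11 alternatives, with Rnd2 between -0.41 and -0.32. The labels share no replicate numbers between genotypes. With the pairs of the deposited tables as a replicate block, no direction or call changed among the 10.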
